A study of Mus musculus with 4 samples.

Results

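Chemokines and secreted cytokines are the signals by which a tumor cell addresses the immune cells and stroma around it. A list of 44 such genes (31 chemokines and 13 cytokines) was followed from ID8G cells to GO2 cells, and its members were found on the arrays through the RefSeq accession of each probe. Of the 44 genes, 43 had a probe, against 22911 named genes on the array in all, and the gene without one was Cxcl11. A total of 21 genes (48.8% of the 43) were tested because their signal was well above background on the 2 arrays of one line or of both. The share tested among all named genes on the array was 57.7%. The other 22 genes of the list were well above background on 0 of the 4 arrays. Expression of 5 genes (Cxcl1, Cxcl12, Il33, Cxcl10 and Ccl5) was higher in GO2 cells than in ID8G cells. That of 7 genes (Ccl2, Il1rn, Cxcl16, Il34, Ccl20, Ccl17 and Ccl8) was lower, although Ccl8 rests on 1 usable GO2 array. Ccl20, Ccl17 and Ccl8 were tested only through ID8G cells, so that they could only be lower. With dimmer values raised to the lowest signal well above background, Ccl17 and Ccl8 were not called.

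ID8G cells are the ID8 line, transformed ovarian surface epithelial cells of C57BL/6 mice, carrying GFP from a retroviral vector and sorted for GFP. GO2 cells were derived from them by 2 rounds of intraperitoneal injection into adult female C57BL/6J mice, with CD45-negative, GFP-positive cells recovered from the omental tumor after each round, so that both lines carry GFP and a single selected population stands for selection. The growth protocol places both lines in culture, in DMEM with 4% FBS, insulin, transferrin and selenite, while the source label of the GO2 arrays reads omental tumor and that of the ID8G arrays reads parental. Each line was measured on 2 one-color Agilent arrays. Nothing in the labels says that the 2 arrays of a line came from separate cultures, so p-values measure the spread between these samples, which may be technical. In a bulk sample, fewer cells that express a gene and less RNA per cell cannot be told apart.

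Chemokines are named for the spacing of their first cysteines (CXC, CC, CX3C and XC) and act on G protein-coupled receptors to direct the migration of leukocytes. CXC chemokines with a glutamate-leucine-arginine (ELR) motif attract neutrophils, the interferon-inducible CXC chemokines attract activated T cells and NK cells, and many CC chemokines attract monocytes, eosinophils or dendritic cells. Many of these genes are switched on through NF-kB, and the interferon-inducible ones also through interferon-stimulated response elements (ISREs) bound by interferon regulatory factors and STAT proteins. In the peritoneal cavity, mesothelial cells, macrophages and the stroma of the omentum are known sources of such factors.

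A selection of promoters of the genes whose results follow is shown first, picked because several of them carry motifs of these pathways. The selection therefore does not represent the called genes. RefSeq promoters (GRCm38.p6) matched 29 of the 44 members, with 34 promoters. Each line below gives the 250 bases before the annotated start of the gene, 5′ to 3′ on the strand of the gene. Capitals mark matches to the NF-kB consensus, to the ISRE core (GAAA, any pair of bases, GAAA) or to a TATA box (TATAAA). The first 3 are Cxcl1 (chr5:90890995-90891244, plus strand), Cxcl2 (chr5:90903649-90903898, plus strand) and Cxcl3 (chr5:90785851-90786100, plus strand), close relatives from one gene cluster of which 1 was measured and higher. Cxcl10 (chr5:92348890-92349139, minus strand) and Cxcl12 (chr6:117168285-117168534, plus strand) were also higher in GO2 cells, and Ccl20 (chr1:83116516-83116765, plus strand) was lower.
Cxcl1: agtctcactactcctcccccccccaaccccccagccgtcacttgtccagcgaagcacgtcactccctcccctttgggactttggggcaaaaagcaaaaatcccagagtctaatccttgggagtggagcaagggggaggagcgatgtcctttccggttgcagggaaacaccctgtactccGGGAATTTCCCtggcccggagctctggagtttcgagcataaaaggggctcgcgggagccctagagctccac
Cxcl2: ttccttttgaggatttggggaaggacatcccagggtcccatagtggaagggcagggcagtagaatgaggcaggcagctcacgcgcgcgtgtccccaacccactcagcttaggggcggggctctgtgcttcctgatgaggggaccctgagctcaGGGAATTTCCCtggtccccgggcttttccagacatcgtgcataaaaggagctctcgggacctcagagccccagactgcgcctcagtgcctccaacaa
Cxcl3: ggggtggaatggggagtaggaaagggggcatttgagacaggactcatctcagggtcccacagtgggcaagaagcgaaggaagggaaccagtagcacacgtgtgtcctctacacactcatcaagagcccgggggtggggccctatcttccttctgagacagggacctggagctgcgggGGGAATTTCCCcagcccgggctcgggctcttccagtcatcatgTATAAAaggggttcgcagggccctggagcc
Cxcl10: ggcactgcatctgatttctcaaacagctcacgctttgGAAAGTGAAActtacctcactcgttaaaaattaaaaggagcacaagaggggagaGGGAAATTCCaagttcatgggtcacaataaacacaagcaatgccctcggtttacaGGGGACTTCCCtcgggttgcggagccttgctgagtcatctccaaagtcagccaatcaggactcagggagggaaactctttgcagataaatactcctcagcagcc
Cxcl12: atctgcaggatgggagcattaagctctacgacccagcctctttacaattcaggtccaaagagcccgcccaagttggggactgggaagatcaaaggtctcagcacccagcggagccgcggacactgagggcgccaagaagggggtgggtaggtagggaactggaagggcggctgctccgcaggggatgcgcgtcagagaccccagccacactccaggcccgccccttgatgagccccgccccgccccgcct
Ccl20: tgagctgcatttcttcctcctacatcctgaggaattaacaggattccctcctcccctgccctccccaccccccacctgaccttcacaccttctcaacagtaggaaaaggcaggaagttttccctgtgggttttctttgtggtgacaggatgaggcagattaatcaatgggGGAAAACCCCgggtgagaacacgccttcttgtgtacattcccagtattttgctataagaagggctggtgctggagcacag

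Positions in these promoters are counted from the annotated start, with -1 as the last base before it. Cxcl1, Cxcl2 and Cxcl3 held the same NF-kB match, gggaatttcc, at -71 to -62, -97 to -88 and -73 to -64, each overlapped by a match on the other strand shifted by 1 base. Cxcl10 held matches at -159 to -150 and, overlapping each other, at -104 to -95 and -103 to -94, together with an ISRE core at -213 to -204. Ccl20 held 1 NF-kB match on the opposite strand, at -80 to -71, and the Cxcl12 promoter held no match to either motif. The called genes Il33, Il1rn, Ccl17 and Ccl8 also had promoters, not printed here, and these held no match to either motif. Both strands were searched over 250 bases before to 50 bases after the start. The NF-kB consensus was present in 8 of the 34 member promoters and in 2779 of all 32851 promoters of that length (8.46% of the 32851). The ISRE core was present in 3 of 34 and in 1131 of 32851 (3.44%), and the TATA box in 12 of 34 and in 4473 of 32851 (13.6%). For the AP-1 site (TGANTCA) the numbers were 9 of 34 and 2565 of 32851 (7.81%). For the GAS element (TTCNNNGAA) they were 2 of 34 and 2726 of 32851 (8.3%), and for the C/EBP core (TTGCNNAA) 4 of 34 and 3547 of 32851 (10.8%). These matches describe the letters of the windows only.

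Levels are given as the log2 intensity of a probe minus the 75th percentile of its array, so that 0 is the level of that percentile and 1 unit is a doubling. A gene was called higher or lower when its brightest tested probe had a Benjamini-Hochberg adjusted p below 0.05 over all 28368 probes tested (limma) and a difference of at least 2-fold. Over all 13215 named genes tested in this way, 5.98% were called higher and 3.94% lower in GO2 cells. Of the 21 tested members, 5 (23.8%) were called higher and 7 (33.3%) lower, and 9 were not called. The median log2 difference was -0.42 over the tested members and -0.00041 over all named genes. Of the 21 members, 3 (Ccl8, Ccl17 and Ccl20) were tested only through their signal in ID8G cells, so that they could only be lower, and 0 only through GO2 cells. Among the 18 members well above background on all 4 arrays, 5 were higher and 4 lower, with a median of -0.34, while 3.65% of all such genes were called higher and 2.91% lower.

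**Figure D1:**
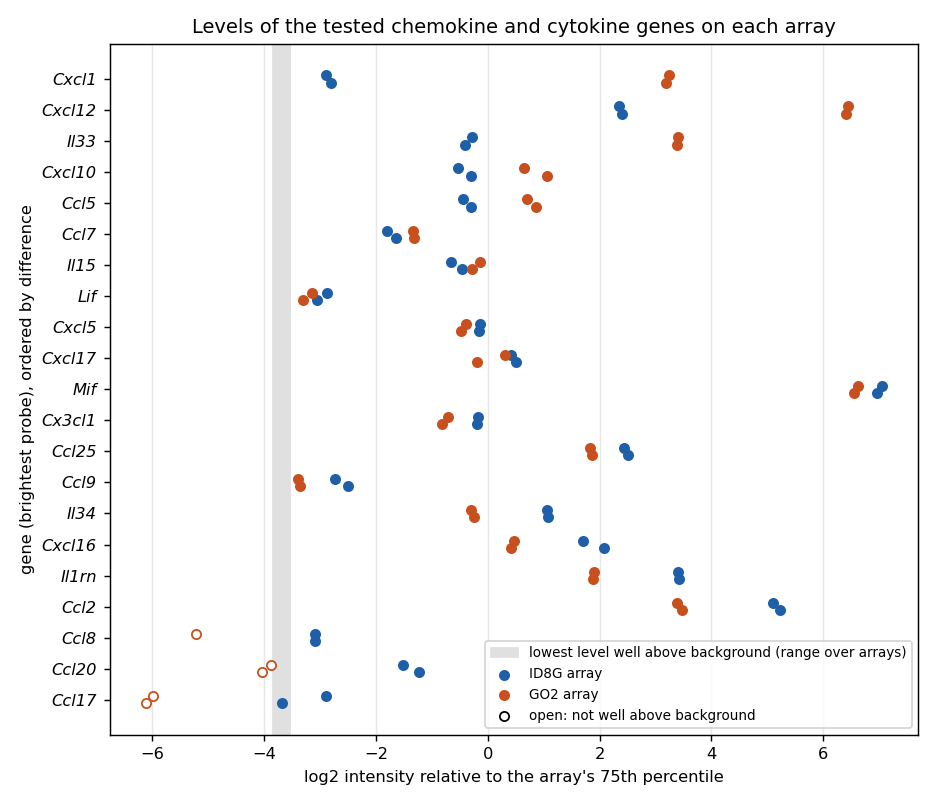
Level of each tested chemokine and cytokine gene on each array (x axis, log2 intensity relative to the array's 75th percentile, brightest probe), with genes ordered by their difference and 2 arrays per cell line. Filled points were well above background and open points were not. The GO2 arrays of Cxcl1 lay at 3.24 and 3.18 and its ID8G arrays at -2.89 and -2.79, while the open points belong to the GO2 arrays of Ccl20 and Ccl17 and to the first GO2 array of Ccl8, whose second was dropped.

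The ELR-positive CXC chemokines had 5 members, of which 2 were tested. Cxcl1, the neutrophil attractant also known as KC, had log2 levels of -2.89 and -2.79 on the ID8G arrays and of 3.24 and 3.18 on the GO2 arrays. Both GO2 arrays lay far above both ID8G arrays, and all 4 values were well above background. The log2 difference was 6.05 (SE 0.06, adjusted p = 0.000182), a 66.5-fold increase that was the largest among the tested members. Cxcl1 was read by 1 probe, and with normexp background correction and an offset of 50 its difference was 5.10. Cxcl5, the other tested neutrophil attractant, had levels of -0.14 and -0.15 in ID8G cells and of -0.38 and -0.48 in GO2 cells. Its groups did not overlap either, but the difference of -0.28 (95% confidence interval -0.45 to -0.12, adjusted p = 0.0302) was below 2-fold and it was not called. Cxcl2, Cxcl3 and Cxcl15 were well above background on 0 arrays. In the order of protein-coding genes on chromosome 5, Cxcl3, Cxcl15, Cxcl1 and Cxcl2 follow each other with 0 genes between them and 2 genes separate Cxcl5 from Cxcl3, so that in this run of neighbors Cxcl1 alone was called higher and its tested neighbor Cxcl5 was not called. The confidence interval of the Cxcl1 difference, 5.88 to 6.23, did not overlap that of Cxcl5.

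Cxcl12, also known as SDF-1, is the ligand of Cxcr4 and Ackr3 and retains hematopoietic cells in their niches. Its brighter probe, which targets NM_001012477, had levels of 2.34 and 2.41 in ID8G cells and of 6.45 and 6.41 in GO2 cells. The level was above the array's 75th percentile in the parental line already and rose on both GO2 arrays by 4.05 on the log2 scale (SE 0.06, adjusted p = 0.000182), or 16.6-fold. The other probe, which targets NM_021704, had levels of 0.76 and 0.84 in ID8G cells and of 4.08 and 4.04 in GO2 cells, a 9.57-fold increase (log2 3.26, SE 0.06, adjusted p = 0.000189). The confidence interval was 3.90 to 4.21 for the first probe and 3.10 to 3.42 for the second, so that the probes gave the same call with differences of unequal size.

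Among the interferon-inducible CXC chemokines, Cxcl10 was the tested member. Cxcl10, also known as IP-10, is a ligand of Cxcr3. Its levels were -0.54 and -0.29 in ID8G cells and 0.65 and 1.06 in GO2 cells. The cell lines did not overlap, although the 2 arrays of each line lay further apart than for most other members. The log2 difference was 1.27 (SE 0.17, 95% confidence interval 0.79 to 1.75, adjusted p = 0.0103), or 2.41-fold, so that the interval included differences below 2-fold. Cxcl9, which shares the receptor and lies 1 gene away on chromosome 5, was well above background on 0 arrays.

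The remaining CXC chemokines were Cxcl13, Cxcl14, Cxcl16 and Cxcl17. Cxcl16, which is made as a membrane-bound protein and shed as the ligand of Cxcr6, had levels of 1.70 and 2.09 in ID8G cells and of 0.47 and 0.42 in GO2 cells. The lower ID8G array was above both GO2 arrays. Cxcl16 fell by 1.45 on the log2 scale (SE 0.14, adjusted p = 0.00454), or 2.74-fold, and its other probe gave -1.09 (SE 0.06, adjusted p = 0.00101). Cxcl17, a mucosal chemokine, had levels of 0.42 and 0.50 in ID8G cells and of 0.32 and -0.19 in GO2 cells. It was not called (log2 difference -0.40, 95% confidence interval -0.91 to 0.12, adjusted p = 0.172), and its GO2 arrays differed from each other by 0.51. Cxcl13 and Cxcl14 were well above background on 0 arrays.

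The CC chemokines formed the largest family, with 16 members, of which 8 were tested, 1 was higher and 4 were lower. Ccl2, also known as MCP-1, recruits monocytes through Ccr2. Its levels were 5.10 and 5.22 in ID8G cells and 3.39 and 3.48 in GO2 cells. Both GO2 arrays were below both ID8G arrays, and the signal was above the 75th percentile in both lines. Ccl2 fell by 1.73 on the log2 scale (SE 0.07, 95% confidence interval -1.93 to -1.53, adjusted p = 0.000552), or 3.32-fold. Ccl7, also a monocyte attractant and the next protein-coding gene after Ccl2 on chromosome 11, had levels of -1.80 and -1.63 in ID8G cells and of -1.33 and -1.32 in GO2 cells. Its difference was 0.39 (95% confidence interval 0.18 to 0.60, adjusted p = 0.0257), which was opposite in sign to that of Ccl2 and below 2-fold, and the intervals of the neighboring genes did not overlap. Ccl11, an eosinophil attractant that follows Ccl7, was well above background on 0 arrays.

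Ccl5, also known as RANTES, attracts T cells and monocytes. Its levels were -0.43 and -0.29 in ID8G cells and 0.70 and 0.86 in GO2 cells. The GO2 arrays were both higher, by 1.14 on the log2 scale (SE 0.09, 95% confidence interval 0.89 to 1.38, adjusted p = 0.00257), or 2.20-fold. The interval included differences below 2-fold, and with the arrays scaled to their spike-in transcripts the difference was 0.93, under the threshold. Ccl5 is followed on chromosome 11 by Ccl9, Ccl6, Ccl3 and Ccl4 with 0 protein-coding genes between them. Of these, Ccl9 had levels of -2.73 and -2.50 in ID8G cells and of -3.40 and -3.35 in GO2 cells (log2 difference -0.76, 95% confidence interval -1.02 to -0.51, adjusted p = 0.0078) and was not called, and Ccl3, Ccl4 and Ccl6 were well above background on 0 arrays. In this run of CC chemokine genes, Ccl5 was higher and its neighbors had no measurable signal or a negative difference.

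Another 3 CC chemokines were well above background on both ID8G arrays and on none of the GO2 arrays that entered the fit. Ccl20, which attracts dendritic cells and Th17 cells through Ccr6, had levels of -1.52 and -1.23 in ID8G cells and of -3.87 and -4.03 in GO2 cells. Because the GO2 values were not well above background, the change is a bound, and Ccl20 was at least 5.40-fold lower (adjusted p = 0.000786). A bound compares the mean of the measured line with the lowest signal well above background on each array of the other line. Ccl17, a ligand of Ccr4 also known as TARC, had levels of -2.90 and -3.67 in ID8G cells and of -5.98 and -6.10 in GO2 cells, at least 1.44-fold lower (adjusted p = 0.00477). Ccl8, also known as MCP-2, had levels of -3.09 and -3.08 in ID8G cells and of -5.22 on the first GO2 array. Its spot on the second GO2 array read 7.98 and was marked as an outlier by the scanner software, so that it was dropped from the fit. With 1 GO2 array left, the call of Ccl8 has no replicate in that line, and with the spot kept the difference was 4.47 (SE 4.60, adjusted p = 0.488), of the opposite sign. The signals of Ccl17 and Ccl8 in ID8G cells were close to the limit, and with every value below the lowest signal well above background raised to that signal, Ccl20 was called and Ccl17 and Ccl8 were not. With normexp background correction and an offset of 50, the difference of Ccl20 was -1.29, smaller than the bound.

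Ccl25, a ligand of Ccr9 that attracts thymocytes and gut-homing T cells, had levels of 2.44 and 2.50 in ID8G cells and of 1.83 and 1.87 in GO2 cells. Its difference of -0.62 (95% confidence interval -0.77 to -0.47, adjusted p = 0.0034) was below 2-fold, and its 2 other probes gave -0.46 and -0.44. Ccl19, Ccl22, Ccl24 and Ccl28 were well above background on 0 arrays. Cx3cl1, the membrane-anchored chemokine fractalkine, had levels of -0.17 and -0.19 in ID8G cells and of -0.72 and -0.81 in GO2 cells, a difference of -0.59 (SE 0.06, adjusted p = 0.00482) that was not called. Cx3cl1 lies between Ccl22 and Ccl17 on chromosome 8 with 0 protein-coding genes between them. Xcl1, the C chemokine lymphotactin, was well above background on 0 arrays.

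**Figure D2:**
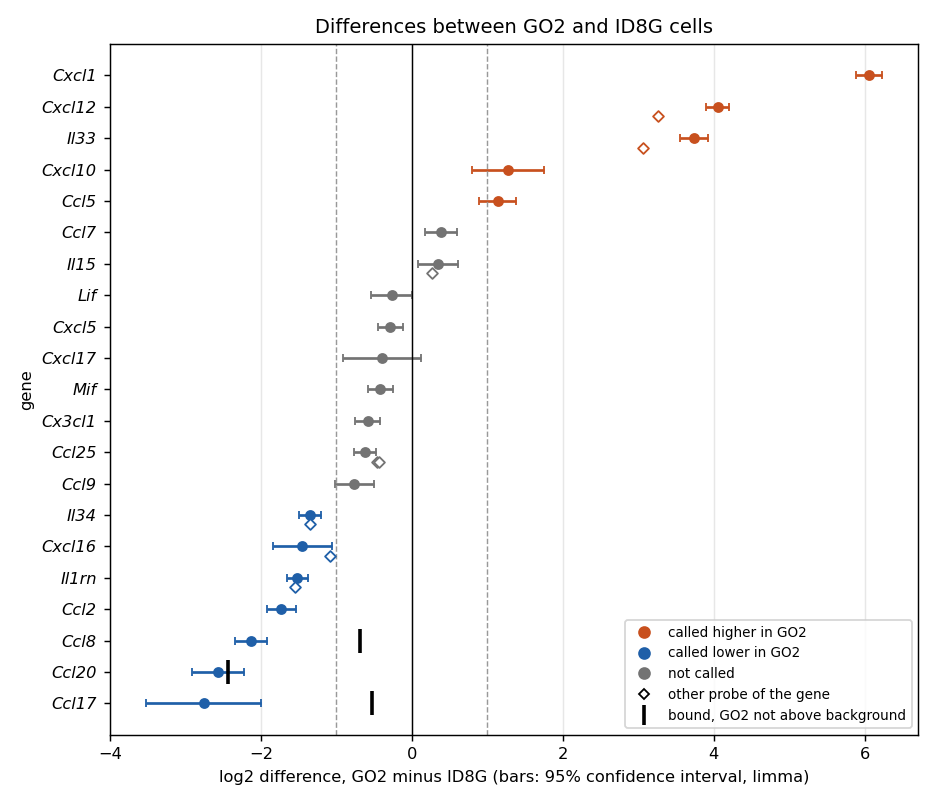
Log2 difference, GO2 minus ID8G, of each tested gene (x axis, points with 95% confidence intervals from limma, 2 arrays per line), with dashed lines at a 2-fold difference. Open diamonds show the other tested probes of a gene, and black bars show the bound for genes not well above background in GO2 cells. Cxcl1 at 6.05, Cxcl12 at 4.05 and Il33 at 3.74 stand apart from Cxcl10 at 1.27 and Ccl5 at 1.14, and the bounds of Ccl17 and of Ccl8, the latter from 1 GO2 array, lie nearer 0 than the line at a 2-fold decrease.

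The cytokines of the IL-1 family moved in both directions. Il33, an alarmin that is stored in the nucleus and signals through the receptor Il1rl1 (ST2), had levels of -0.28 and -0.41 in ID8G cells and of 3.41 and 3.39 in GO2 cells. Both GO2 arrays were higher, by 3.74 on the log2 scale (SE 0.07, adjusted p = 0.000189), or 13.4-fold. Its other probe had levels of -3.84 and -2.70 in ID8G cells, of which 1 was well above background, and of -0.04 and -0.36 in GO2 cells (log2 difference 3.07, SE 0.42, adjusted p = 0.0102). Il1rn, the antagonist that occupies the IL-1 receptor without signaling, had levels of 3.39 and 3.43 in ID8G cells and of 1.90 and 1.88 in GO2 cells. It fell by 1.52 on the log2 scale (SE 0.05, adjusted p = 0.000387), or 2.87-fold, and its other probe gave -1.55. Il1a, an agonist of the same receptor as the one Il1rn blocks, was well above background on 0 arrays.

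Il34, the second ligand of the macrophage growth factor receptor Csf1r, had levels of 1.07 and 1.08 in ID8G cells and of -0.30 and -0.25 in GO2 cells. Both GO2 arrays were lower, and Il34 fell by 1.35 on the log2 scale (SE 0.05, adjusted p = 0.00049), or 2.55-fold, with -1.35 from its other probe as well. Il15, which sustains NK cells and memory T cells, had levels of -0.66 and -0.46 in ID8G cells and of -0.14 and -0.28 in GO2 cells (log2 difference 0.35, adjusted p = 0.0586). Lif, an IL-6 family cytokine that acts through Lifr and Il6st, had levels of -2.87 and -3.06 in ID8G cells and of -3.15 and -3.31 in GO2 cells (log2 difference -0.27, adjusted p = 0.109). Mif, a cytokine that many cell types express without stimulation, had levels of 7.05 and 6.97 in ID8G cells and of 6.62 and 6.55 in GO2 cells (log2 difference -0.42, adjusted p = 0.0119). None of Il15, Lif and Mif was called, with 95% confidence intervals of 0.08 to 0.62, -0.54 to 0.01 and -0.59 to -0.25. Il6, Il7, Il11, Tslp and both listed colony-stimulating factors, Csf2 and Csf3, were well above background on 0 arrays.

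**Figure D3:**
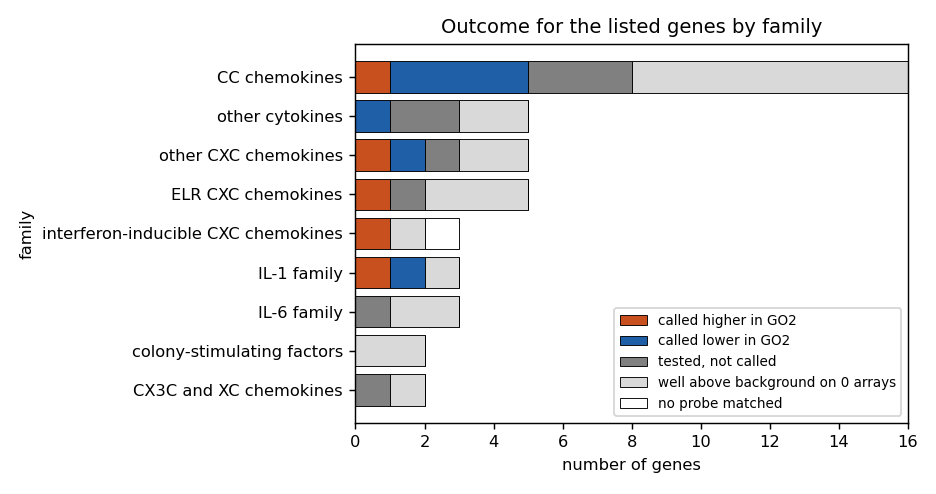
Number of listed genes in each family (x axis), divided by outcome. The CC chemokines hold 16 of the 44 genes and 4 of the 7 called lower in GO2 cells, of which 3 were tested only through ID8G cells. The 5 genes called higher fall into 5 families, and the light gray segments are the 22 genes well above background on 0 arrays.

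The 5 genes called higher came from 5 different families (ELR-positive CXC, interferon-inducible CXC, other CXC, CC and IL-1). CC chemokines made up 8 of the 21 tested genes and 4 of the 7 genes called lower, but 3 of these 4 were tested only through ID8G cells. Among the members well above background on all 4 arrays, CC chemokines were 5 of 18 and 1 of the 4 genes called lower. The 12 called genes had standard errors from 0.05 to 0.28 on the log2 scale. The 2 arrays of a line differed by a median of 0.12 in ID8G cells and of 0.08 in GO2 cells over the tested members, and at most by 0.77 and 0.51. Of the 9 tested genes that were not called, the differences ran from -0.76 to 0.39, and 6 of them had an adjusted p below 0.05 with a difference below 2-fold. The 7 members with several tested probes gave the same call from each of them. The 22 undetected genes were read by 26 probes, whose levels ran from -5.86 to -4.08 on the first ID8G array, from -6.15 to -4.34 on the second, from -6.08 to -4.57 on the first GO2 array and from -6.16 to -4.47 on the second. The lowest signals that were well above background on these arrays were -3.53, -3.82, -3.77 and -3.85, so that for these genes the arrays give only an upper limit and no comparison.

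The chemokine receptors were mostly not measurable in the same cells, whereas most receptor chains for the cytokine members were. Of 23 chemokine receptor genes, 4 were tested and 15 were well above background on 0 arrays, among them Cxcr2, Cxcr4, Ackr3, Cxcr3 and Ccr6, the receptors of Cxcl1, Cxcl12, Cxcl10 and Ccl20, which are named here after their values were seen. Cxcr6, the receptor of Cxcl16, was tested, with levels of -3.29 and -3.14 in ID8G cells, where alone it was well above background. It was at least 1.51-fold lower in GO2 cells (adjusted p = 0.00471) and was not called. The gene called was Ackr4, a scavenging receptor for Ccl19, Ccl21 and Ccl25, which was at least 3.07-fold higher in GO2 cells (adjusted p = 0.000505). Ackr4 was well above background in GO2 cells alone, and of the 4 genes 1 (Ccr7) was well above background on all 4 arrays and was not called, so that direction was fixed by the filter for the other 3. Of 18 receptor chains for the cytokine members, 13 were tested. Over all named genes tested, 5.98% were called higher and 3.94% lower. Of the 13 chains, 2 (15.4%) were called higher and 0 lower, with a median of 0.22. These were Il1rap, the shared accessory chain for IL-1 and IL-33, at 1.36 (SE 0.07, adjusted p = 0.000859), and Il1r1, the signaling IL-1 receptor that Il1rn blocks, at 1.02 (SE 0.09, adjusted p = 0.00355). Il1r1 lay at the threshold and was not called without ID8G replicate 2 (0.95), without GO2 replicate 1 (0.94), with normexp (0.74), median centering (0.99) or spike-in scaling (0.81), which left 1 gene, and with limma treat 0 were called. Il1rl1, the receptor of IL-33, was well above background on 1 ID8G array and on 0 GO2 arrays and was not tested. Csf1r, the receptor of Il34, had a difference of 0.22 (adjusted p = 0.126).

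Beyond the 44 genes, 38 other chemokines and cytokines had a probe, of which 13 were tested and 24 were well above background on 0 arrays. Of the 13 tested, 2 (15.4%) were called higher, while 5.98% of all named genes tested were called higher and 3.94% lower. Il18, an IL-1 family cytokine, was higher by 3.97 on the log2 scale (SE 0.11, adjusted p = 0.000276) and Csf1, the other ligand of Csf1r, by 2.11 (SE 0.05, adjusted p = 0.000248), and 0 genes were lower. The levels of Csf1 were 2.02 and 1.98 in ID8G cells and 4.12 and 4.08 in GO2 cells, so that the ligands of Csf1r differed in opposite directions between the lines, Il34 lower and Csf1 higher. The median of these 13 genes was 0.08 and turned to -0.13 with scaling to the spike-in transcripts, which moved the median of all named genes to -0.21.

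Among regulators with known roles in chemokine transcription or mRNA decay (NF-kB and C/EBP proteins, their inhibitors and RNA-binding decay factors), 19 of 20 were tested, 0 were higher and 1 was lower, with a median of -0.06. The gene called was Nfkbie, the inhibitor IkB-epsilon, at -1.25 (SE 0.09, adjusted p = 0.00182). Of 18 interferon-induced genes with a probe, 12 were tested, 6 were higher and 0 lower, with a median of 0.96. Over those well above background on all 4 arrays the median was 0.64. Over all named genes tested, 5.98% were called higher and 3.94% lower. By fitted value, Ifit3 (at least 2.78-fold higher, adjusted p = 0.0184) and Ifit1 (at least 4.06-fold higher, adjusted p = 0.00384) differed most. Gbp2 (log2 1.78, adjusted p = 0.00046) and Isg15 (log2 1.56, adjusted p = 0.00119) followed. These genes take part in antiviral and antimicrobial defense, and Cxcl10 from the main list was higher in the same cells. Ifit3 and Ifit1 were well above background in GO2 cells alone, so that they could only be higher. The bound of Ifit3 (log2 1.48) was smaller than the differences of Gbp2 and Isg15. With limma treat 3 genes of this list were called higher. The count of 6 fell to 3 of 9 when signal well above background was required on all 4 arrays, and to 4 with another background correction or without GO2 replicate 2.

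**Figure D4:**
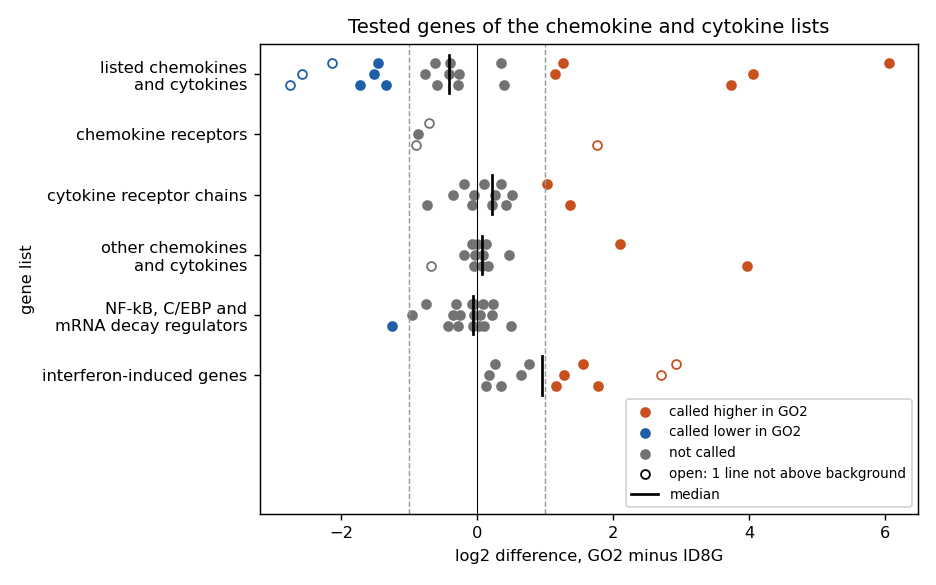
Log2 difference, GO2 minus ID8G, of the tested genes of each list (x axis, 1 point per gene, brightest probe), with a black line at the median of each list except the receptors, of which 4 were tested. Open points are fitted values of genes not well above background in 1 of the lines, which have only a bound, Ccl17, Ccl20 and Ccl8 among them. Cxcl1 lies highest at 6.05, the 19 regulators have a median of -0.06, and the interferon-induced genes a median of 0.96 with open points included.

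The arrays carried 27502 to 28841 probes well above background. Over the probes tested, replicates correlated at 0.997 (Pearson's r) and arrays of different lines at 0.967 to 0.968. Markers of other cell types were checked on the same arrays. Of 12 macrophage markers, 5 were well above background on all arrays (Itgam, Csf1r, Cd14, Cd68 and Fcer1g) and 0 were called. Itgam had levels of 4.18 and 4.39 in ID8G cells and of 4.13 and 4.17 in GO2 cells, and Cd14 had a difference of -0.69 (adjusted p = 0.0021). Ptprc, Adgre1 and Lyz2 were among the 7 that were well above background on 0 arrays, and the summed linear level of the list was 22.6 and 25.3 times the array's 75th percentile in ID8G cells and 21.9 and 22.0 times in GO2 cells. Itgam, the brightest macrophage marker, weighed most in this sum. Lymphocyte markers were tested for 2 of 11 genes and endothelial markers for 1 of 7, with 0 called. Of 8 adipocyte markers, 3 were tested and Fabp4 was at least 6.28-fold lower, with Adipoq and Plin1 well above background on 0 arrays. The ID8 lineage was checked on 7 mesothelial markers, of which 6 were well above background in both lines, Wt1 at -0.10 (adjusted p = 0.478), Upk3b higher at 1.08 (adjusted p = 0.000787) and Krt19 lower at -1.65 (adjusted p = 0.00034), and on 7 epithelial markers, of which 5 were tested and Cldn3 was lower. Msln (-0.82, adjusted p = 0.00176), Krt18 (-0.81, adjusted p = 0.00162) and Krt8 (-0.55, adjusted p = 0.00438) were not called. The summed linear level was 280 and 287 times the 75th percentile in ID8G cells and 151 and 154 times in GO2 cells for the mesothelial markers, and 392 and 378 against 231 and 232 times for the epithelial ones. The ID8G sums were weighted to the brightest gene of each list. For the mesothelial list this was Krt19, at 7.40 and 7.37 in ID8G cells and 5.72 and 5.75 in GO2 cells. For the epithelial list it was Krt18, at 8.12 and 8.07 against 7.27 and 7.29. The median log2 difference over the tested genes was -0.07 for the mesothelial list and -0.55 for the epithelial list. Of 10 fibroblast markers, 7 were tested and 5 were higher, Col1a2 by 7.49, Col1a1 by 4.69, Col3a1 by 4.20 and Pdgfra by 3.70 on the log2 scale and Pdgfrb by at least 2.42-fold. Dcn (-0.63, adjusted p = 0.00309) and S100a4 (-0.21, adjusted p = 0.0646) were not called, while Fap, Lum and Thy1 were well above background on 0 arrays and the summed linear level was 251 and 241 times the 75th percentile in ID8G cells and 308 and 299 times in GO2 cells. That sum was weighted to S100a4, at 7.49 and 7.43 in ID8G cells and 7.30 and 7.22 in GO2 cells. The median log2 difference over the 7 tested fibroblast markers was 3.70. The part of these marker genes in the differences of Cxcl1, Cxcl12 and Il33 was not tested.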

How the data were processed

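Total RNA of ID8G and GO2 cells was labeled with Cy3 and hybridized to 4 SurePrint G3 Mouse GE arrays, 2 per cell line, on 1 slide read in 1 scan. The deposited scanner output gives 1 intensity per spot, from which Feature Extraction 11.5.1.1 had subtracted the background, without normalization between arrays. The authors used GeneSpring GX with settings not given in the sources used here. The deposited value table holds log2 values, of which 99.9% lay within 0.01 of the log2 intensity after subtraction of the 75th percentile of the array and of the median of the probe. The medians of its columns were 0.10, -0.05, 0.04 and -0.05, and it served 1 alternative only. Of the per-sample columns, 0 were left unused.

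Spots marked as outliers were dropped, spots of a probe were averaged, and the 75th percentile over non-control probes was subtracted from the log2 intensity of each array. The test was limma 3.58.1 (R 4.3.3) on cell line, without covariates, for probes whose signal was well above background on the 2 arrays of one line or of both. A call required a Benjamini-Hochberg adjusted p below 0.05 over all probes and a log2 difference of at least 1, and a gene took the call of its brightest tested probe. With 2 arrays per line an exact permutation test of a single gene cannot go below p = 0.333, and the number of arrays limits the precision. The same-numbered arrays did not deviate together (correlation 0.0273). The 2 arrays of a line shared 0 identical values.

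Names came from the RefSeq accession of each probe through a GRCm38.p6 table, which matched 32994 of 56605 probes (58.3%) and was used for names and gene order. Promoters and their coordinates are those of RefSeq in the same build. No promoter was given for 15 of the 44 members, Ccl2, Ccl5, Cxcl16 and Il34 among them.

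The 44 members, the 5 pathway lists and the 7 marker lists were chosen with earlier results of these data known. All members are accounted for, with the value of every array in the fit for each tested member, and from each pathway list at most the 4 called genes with the largest difference are named by rule. Alternatives covered the background correction (normexp, offset 50), the scaling (quantile, median, spike-ins), no filter and a stricter filter on dim probes, a floor, outlier spots kept, an intensity trend, the methods' t-test, the replicate block, the deposited table, the mean over probes, limma treat, no fold threshold and each replicate left out. Figures were drawn with matplotlib 3.10.9 in python 3.11.15.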

Additional observations from a re-analysis of the deposited data

How the results depend on the processing

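Of 394 values of single members recomputed under the alternatives, 366 kept their direction and their call, 20 kept their direction and lost the call, 6 gained a call and 2 changed direction. Both changes of direction were those of Ccl8, at 4.47 with the outlier spot kept and 4.47 from the deposited table, because the dropped spot of GO2 replicate 2 returns to the fit, and without GO2 replicate 1 Ccl8 had no value. The members called numbered 5 higher and 7 lower. With signal well above background required on all 4 arrays, 4 were called lower, since 3 genes then leave the test. With limma treat 3 were called higher and 6 lower, and with no fold threshold 6 and 12. Over all 13215 named genes tested, treat called 491 higher and 277 lower, and no fold threshold 2778 and 2641. After adjustment over all probes, the methods' t-test called 0 members higher and 0 lower, while 8 members passed its unadjusted threshold with a 2-fold difference, and limma called 12. Without each replicate in turn the counts ran from 5 to 5 higher and from 6 to 7 lower. With the replicate number as a block, they were 5 and 7, and the block changed no call of a member. Spike-in scaling called 4 members higher, without Ccl5, and over all named genes turned 790 higher and 521 lower into 675 and 714. Over the alternatives the log2 difference ran from 5.10 to 6.10 for Cxcl1, from 3.66 to 4.09 for Cxcl12, from 3.40 to 3.81 for Il33, from 1.06 to 1.47 for Cxcl10, from 0.93 to 1.22 for Ccl5, from -1.94 to -1.67 for Ccl2, from -2.78 to -1.29 for Ccl20 and from -3.15 to -0.53 for Ccl17. Without a filter on dim probes 5 were higher and 8 lower, with Ccl24 gained and Cxcl10 lost among the former and Cxcl3 gained among the latter. Cxcl10, Ccl5 and Cxcl16 were not called with treat, and Ccl8 and Ccl17 not with normexp or the floor. The slide as a block was not run because there is 1 slide. A total of 22 members lay below the detection limit and could not be compared.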
